A study of Rattus norvegicus with 4 samples.

Results

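The ADP-ribosylation factor (ARF) genes Arf1, Arf2, Arf3, Arf4, Arf5 and Arf6 were followed in primary cultures of rat Sertoli cells, which support germ cells inside the seminiferous tubules, after 24 h of 4-nonylphenol (4-NP), an estrogen-like breakdown product of detergents. These 6 genes were taken by name, out of 13114 gene names in the mRNA table, and the family was chosen by its values in this comparison, in which Arf4 rose, so that its paralogs could be set beside it. The values of the 6 genes in 4-NP and control cells are therefore a description, with no test. Ribosomal RNA was removed from total RNA, and 2 libraries of 4-NP-treated cells and 2 of control cells were sequenced. The cells were enriched from testes of young Sprague-Dawley rats and passaged in medium with serum, so that other testis cells that attach may be among them. The labels give no dose, and that in the study's methods is not repeated here. They also do not say whether the libraries of a group came from separate cultures, so every p-value below measures only the spread between these libraries. Levels are FPKM, fragments per kilobase of transcript scaled to the mapped fragments of the library, summed over the transcripts of a gene name, which allows levels of different genes to be compared per length.

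ARF proteins are small GTPases that sit on membranes when bound to GTP, through a myristoylated N-terminal helix, and leave them after GTP hydrolysis. Exchange factors load them with GTP and GTPase-activating proteins end the cycle. Arf1, Arf2 and Arf3 form class I and Arf4 and Arf5 class II, and both classes recruit the COPI coat and clathrin adaptors at the Golgi, while Arf6, the class III member, works at the plasma membrane and endosomes. In human cells ARF4 is known as a target of the transcription factor CREB3 under Golgi stress.

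The promoters of the 6 genes were read from RefSeq (build GRCr8), in windows of 250 bases before and 50 bases after the start. They were read with the changes of the ARF genes known, and a link between the 2 was not tested. All 6 genes had an entry. The 100 bases before the start are shown for the 3 genes with a match to a stress element there, 5′ to 3′ on the gene's strand, with the matched letters in capitals.
Arf4: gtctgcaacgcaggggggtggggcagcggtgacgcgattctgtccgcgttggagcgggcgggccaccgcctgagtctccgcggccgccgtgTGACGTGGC
Arf1: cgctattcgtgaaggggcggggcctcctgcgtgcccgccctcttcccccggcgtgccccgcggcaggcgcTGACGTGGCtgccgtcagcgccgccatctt
Arf5: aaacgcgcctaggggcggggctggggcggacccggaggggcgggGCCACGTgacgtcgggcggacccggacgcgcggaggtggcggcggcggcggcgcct
The Arf4 stretch lies on chr16:1903336-1903435 (plus strand), the Arf1 stretch on chr10:44513995-44514094 (minus strand) and the Arf5 stretch on chr4:58003871-58003970 (plus strand). In Arf4 and in Arf1 the capitals hold TGACGTGG, the unfolded protein response element read by XBP1 and ATF6 in mammalian cells, overlapped by ACGTGGC, a Golgi stress element that TFE3 binds in human cells. The first element spans bases 9 to 2 before the start in Arf4 and 30 to 23 in Arf1. In Arf5 the capitals are the Golgi stress element on the opposite strand, 56 to 50 bases before the start, and Arf3 held it at 247 to 241 bases before the start, outside the stretch shown for the other genes. Neither element was matched in Arf2 or Arf6.

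Both strands of 33469 RefSeq promoter windows of the same length were searched for 6 elements. The unfolded protein response element was found in 0.595% of them (199 windows) and the Golgi stress element in 2.3% (770 windows), against 2 and 4 of the 6 ARF windows. These windows include genes that were not tested here. Among the 6187 tested genes with an entry, 70 held the first element and 245 the second, the ARF genes included. No ARF window held the ER stress element (CCAAT and CCACG separated by 9 bases, 0.0657% of windows), the ER stress element II (ATTGG and CCACG separated by 1 base, 0.0508%), the cAMP response element TGACGTCA (1.83%) or the C/EBP-ATF element TGATGNAA (3.98%). These matches describe letters in a window and were not tested as binding sites. The windows were rich in G and C, with 78.7% in Arf6, 68 to 68.7% in Arf1, Arf3, Arf4 and Arf5, and 54.7% in Arf2.

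**Figure D1:**
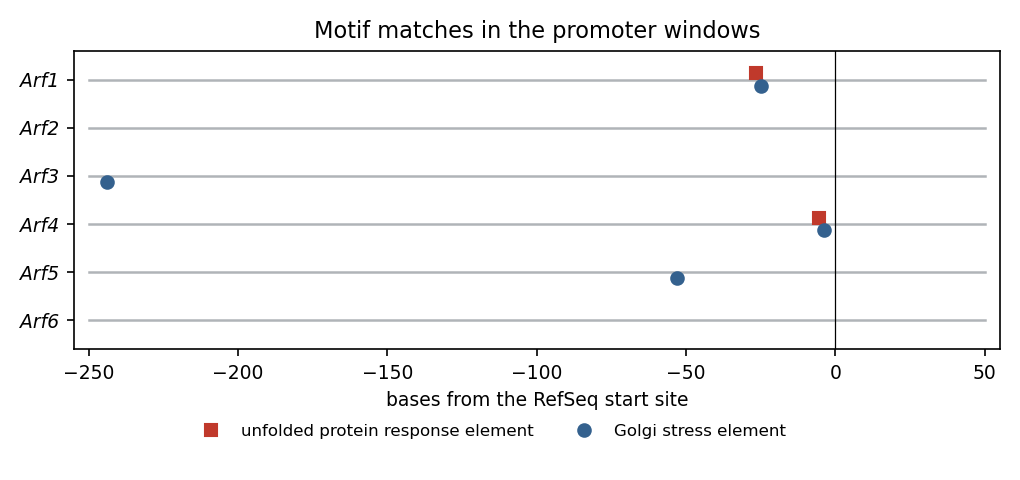
Matches to the unfolded protein response element (squares) and the Golgi stress element (circles) in the promoter window of each ARF gene, by distance in bases from the RefSeq start site (vertical line). Arf1 and Arf4 hold both elements, overlapping and within 30 bases of the start, Arf3 and Arf5 hold the Golgi stress element alone, and Arf2 and Arf6 hold neither.

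The libraries differed in depth and in the level of cell type markers. The mapped reads came to 104 and 96.6 M in the 4-NP libraries, against 116 and 119 M in the control libraries. Of 8012 genes that averaged 1 FPKM or more, 24.7% were called higher and 23.1% lower in 4-NP cells (limma on log2(FPKM + 1), Benjamini-Hochberg adjusted p under 0.05), and the median log2 change of all tested genes was 0.05. With any 1 library left out these shares were lower, at 13.9 to 19.3% higher and 15.4 to 16.5% lower, and with all libraries scaled to equal totals 22.6% were higher and 25.1% lower. The Sertoli markers Sox9, Gata4, Fshr and Dmrt1 were under 1 FPKM in every library, so the label rests on few of its markers. The 9 Sertoli markers in the table summed to 50.2 to 58.5 FPKM in 4-NP cells and 181 to 197 FPKM in control cells, and all 5 that were tested were called lower. All 8 markers of peritubular myoid or smooth muscle cells were also called lower, and they summed to 648 to 660 FPKM in 4-NP cells, against 7891 to 7977 FPKM in control cells. Of 6 Leydig cell markers, 3 were in the table and only 1 was tested. That 1 went the other way and was called higher. The 3 summed to 788 to 814 FPKM in 4-NP cells, against 306 to 311 FPKM in control cells. Since the others averaged under 1 FPKM, nearly all of this sum is that 1 gene. Markers of germ cells (4 tested), macrophages (2) and endothelial cells (2) were called lower wherever tested, with sums of at most 5.51 FPKM in 4-NP cells and 22.3 FPKM in control cells. The part of these shifts in the ARF values was not tested, and fewer cells of a type and less RNA per cell cannot be told apart in bulk libraries.

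Arf4, a class II ARF of the Golgi and recycling endosomes, stood at 3953 and 4148 FPKM in 4-NP cells, against 114 and 135 FPKM in control cells. Both 4-NP libraries were far above both control libraries, and the replicates of each group lay close together. The mean was 4051 ± 138 FPKM in 4-NP cells and 125 ± 14.8 FPKM in control cells (SD, n = 2 each), a ratio of 32.5 and a log2 change of 5.02 ± 0.10 (SE). Among 13114 gene names, Arf4 was the 3rd and the 2nd most abundant in the 4-NP libraries, against the 356th and the 310th in the control libraries. It took 1.39 and 1.44% of all FPKM in the 4-NP libraries, against 0.0431 and 0.0490% in the control libraries. Its log2 change ranked 6th among the 8012 tested genes with the pseudocount of 1 FPKM, 31st with 0.1 FPKM and 2nd with 5 FPKM. By the ratio of means it ranked 61st, behind genes near or at 0 in control cells.

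Arf5, the other class II gene and the closest relative of Arf4, was at 36.5 and 43.6 FPKM in 4-NP cells, against 37.3 and 34.6 FPKM in control cells. The groups overlapped, which was the case for no other ARF gene. Arf5 averaged 40.1 ± 5.02 FPKM in 4-NP cells and 35.9 ± 1.94 FPKM in control cells, a log2 change of 0.15 ± 0.12. The ratio of Arf4 to Arf5 was therefore 108 and 95.1 in the 4-NP libraries, against 3.06 and 3.91 in the control libraries.

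Arf1, the class I gene that recruits COPI and clathrin adaptors throughout the Golgi, had 15.2 and 11.3 FPKM in 4-NP cells, against 1.97 and 2.52 FPKM in control cells. The 4-NP libraries were several times the controls, with an SD of 20.9% of the mean in 4-NP cells and 17.3% in control cells, the widest relative spread in each group among the 6 genes. The mean of 13.3 ± 2.77 FPKM in 4-NP cells, against 2.25 ± 0.389 FPKM in control cells, gave a ratio of 5.91 and a log2 change of 2.13 ± 0.20, which ranked 149th among tested genes. The log2 change is on the log2(FPKM + 1) scale and understates the change of genes as low as Arf1. The table held 1 Arf1 transcript, and the RefSeq annotation names Arf1 and Arf4 pseudogenes in the rat, so reads may be shared with near-identical copies and both levels are uncertain to that extent.

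The other class I genes moved less. Arf2, a class I gene that rodents express and humans lack, was at 13.8 and 14.7 FPKM in 4-NP cells, against 11.5 and 11.9 FPKM in control cells, and its groups lay apart by a small gap. Its log2 change was 0.27 ± 0.09. Arf3, which shares much of its sequence with Arf1 and works at the trans-Golgi, was at 33.8 and 35.6 FPKM in 4-NP cells, against 25.2 and 25.0 FPKM in control cells. Both 4-NP libraries were above both controls, with a log2 change of 0.45 ± 0.07. Nearly all of the Arf3 signal came from the transcript with 4 exons, which had 33.2 and 34.2 FPKM in 4-NP cells and 24.6 FPKM in both control libraries. The Arf3 transcript with 6 exons stayed low, at 0.626 and 1.31 FPKM in 4-NP cells, against 0.574 and 0.394 FPKM in control cells.

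Arf6, which drives endosomal recycling and actin remodelling at the plasma membrane, was at 93.6 and 94.2 FPKM in 4-NP cells, against 52.1 and 57.9 FPKM in control cells. The 4-NP libraries were nearly equal and both were above the controls. The mean was 93.9 ± 0.411 FPKM in 4-NP cells and 55.01 ± 4.08 FPKM in control cells, a ratio of 1.71 and a log2 change of 0.76 ± 0.08.

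**Figure D2:**
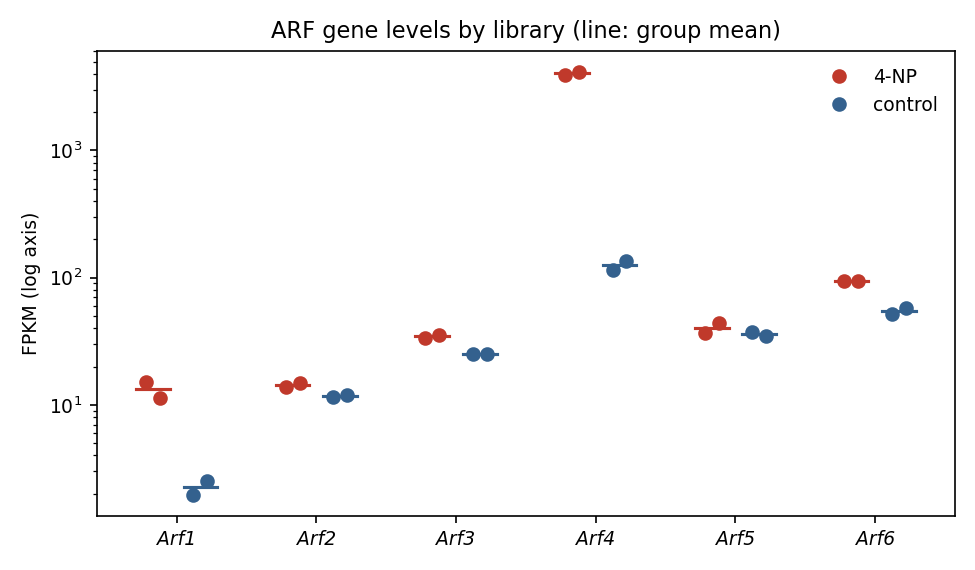
FPKM of each ARF gene in each library, on a log axis, with 4-NP libraries left of control libraries, points for libraries and short lines for the group means. Arf4 stands at 3953 and 4148 FPKM in 4-NP cells, against 114 and 135 FPKM in control cells, Arf1 is the next in size of change, and the Arf5 groups overlap.

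Of the 6 genes, 4 (Arf1, Arf3, Arf4 and Arf6) were among the genes called higher and 0 among those called lower, beside 24.7% and 23.1% of all tested genes, and 5 had both 4-NP libraries above both controls, beside 40.1% of all tested genes. Nothing is read from these counts, since the comparison chose the genes. The median log2 change was 0.61 over the 6 genes and 0.45 over the 5 without Arf4, against 0.05 over all tested genes. Arf6 ranked 1605th, Arf3 2539th, Arf2 3164th and Arf5 3627th of 8012 by log2 change, so that 4 of the 6 lay well inside the bulk of the distribution.

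**Figure D3:**
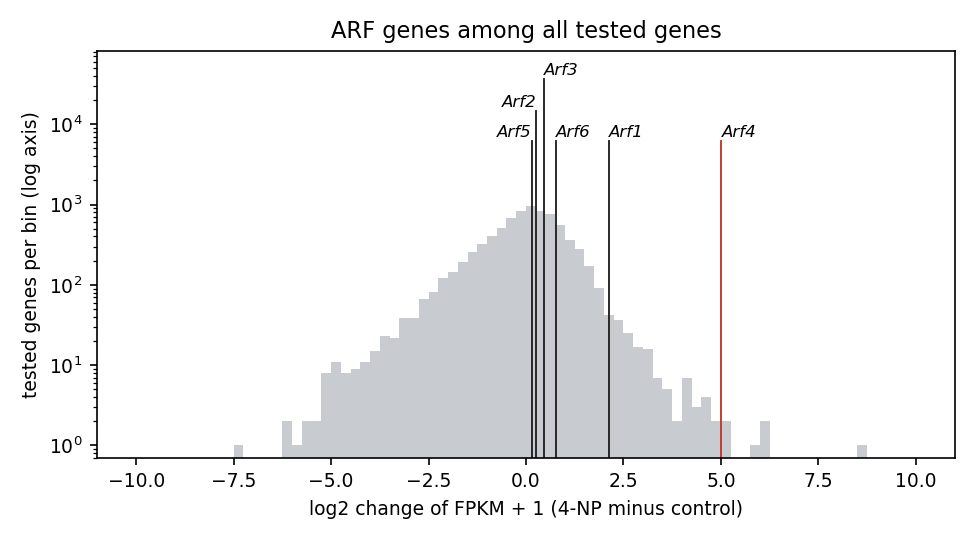
Distribution of the log2 change of FPKM + 1 (4-NP minus control) over 8012 tested genes, with a line for each ARF gene. Arf4 at 5.02 lies at the far right and Arf1 at 2.13 in the right tail, while Arf2, Arf3, Arf5 and Arf6 lie between 0.15 and 0.76.

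The make-up of the ARF pool differed between the groups. The 6 genes summed to 4146 and 4348 FPKM in 4-NP cells, against 242 and 267 FPKM in control cells. Arf4 made up 95.3 and 95.4% of this sum in the 4-NP libraries, against 47.1 and 50.6% in the control libraries. Without Arf4 the sum was 193 and 199 FPKM in 4-NP cells, against 128 and 132 FPKM in control cells. Arf4 was 20.5 and 20.8 times the sum of the other 5 genes in the 4-NP libraries, and 0.892 and 1.03 times that sum in the control libraries.

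The order of the levels was Arf4, Arf6, Arf5, Arf3, Arf2 and Arf1, highest to lowest, in both groups. In 4-NP cells the ranges of Arf2 (13.8 to 14.7 FPKM) and Arf1 (11.3 to 15.2 FPKM) overlapped, so these neighbours did not differ beyond their spread, and the lowest Arf5 library (36.5 FPKM) was close to the highest Arf3 library (35.6 FPKM). In control cells no neighbours overlapped. Arf4 was followed by Arf6 in every library, at 42.2 and 44.1 times its level in the 4-NP libraries, against 2.19 and 2.33 times in the control libraries.

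**Figure D4:**
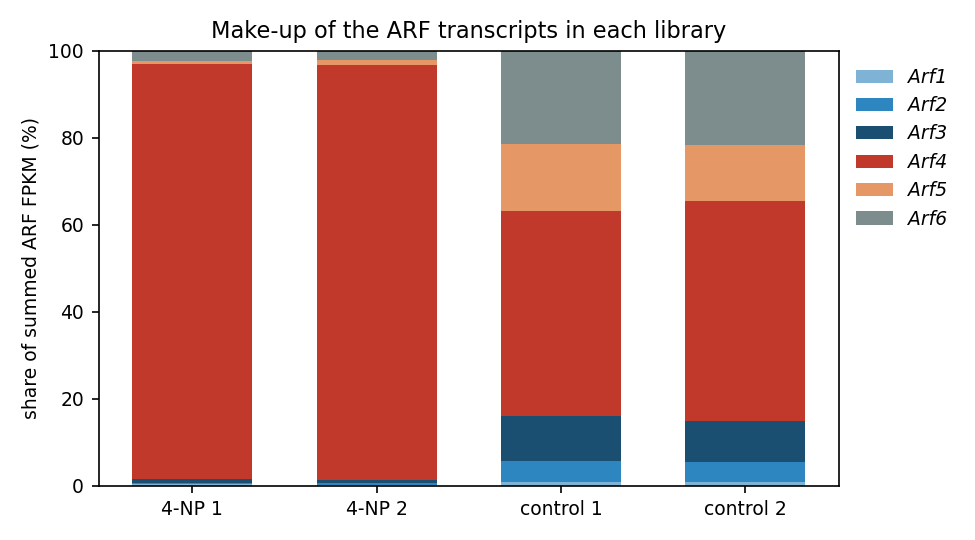
Share of each ARF gene in the summed FPKM of the 6 genes, in percent, for each library, with 4-NP libraries left of control libraries. Arf4 takes 95.3 and 95.4% in 4-NP cells, against 47.1 and 50.6% in control cells, and Arf6 is the next largest share in all 4 libraries.

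The Arf4 level came from 1 transcript with 6 exons and 1603 bases, on the plus strand of chromosome 16 at 2338333 to 2354909 in the coordinates of the deposited table, for which no source used here names a build. Its 3 listed neighbours within 100000 bases were low. Dennd6a, which lies upstream, was at 5.39 and 1.36 FPKM in 4-NP cells, against 0.713 and 2.11 FPKM in control cells. Pde12 was at 8.58 and 7.35 FPKM in 4-NP cells, against 5.47 and 5.28 FPKM in control cells, and Dnah12 was near 0 in every library. The listed transcripts of the other ARF genes lie on chromosomes 10 (Arf1 and Arf2), 7 (Arf3), 4 (Arf5) and 6 (Arf6), and Arf6 has a single exon. No listed lncRNA was assigned to an ARF gene or lay within 100000 bases of one.

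The genes whose pattern over the 4 libraries was most like that of Arf4 were sought among 4706 genes that averaged 5 FPKM or more, by the Euclidean distance between centred log2(FPKM + 1) values. They were Serpinb2 (distance 0.173), Car8 (0.240), Arhgef25 (0.500), Avil (0.515), Brms1 (0.592) and Vat1l (0.606). This choice was set by the pseudocount, since 5 of the 6 averaged under 1 FPKM in control cells and 3 of them were listed at 0 there. All 6, Avil included, averaged under 5 FPKM in control cells, so they passed the filter through the 4-NP libraries alone. With a pseudocount of 0.1 FPKM, tried after seeing the data, 1 of the 6 nearest genes was among those named (Avil), and with 5 FPKM 0 were. Avil, which encodes the actin-binding protein advillin, was at 65.3 and 63.8 FPKM in 4-NP cells, against 1.85 and 1.34 FPKM in control cells. Among the ARF genes Arf1 was the nearest to Arf4, at the 96th place (distance 2.91), and the others lay between the 1081st and the 2382nd.

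Genes around the ARF cycle were described from 11 lists by role, with 142 genes. The table held 122 of them and 92 passed the filter on low values. Of these, 37 rose (40.2%, beside 24.7% of all tested genes) and 4 fell (4.35%, beside 23.1%), and the median log2 change was 0.46. The lists were chosen with earlier results of these data known, and 1 of those that rose, Arfgef3, passed the filter through the 4-NP libraries alone, which leaves 36 that rose. Of the 41 called genes, 26 were called in each of the 4 fits that leave out 1 library. In such a fit 1 group has a single library, which is assumed to vary like the other group, so a call that passes there says little about the spread of that group. With any 1 library left out, the genes called higher numbered 25 to 35, the lowest without 4-NP replicate 2, and those called lower 3 to 6, beside the lower shares of all genes in those fits. All calls are from limma with Benjamini-Hochberg adjustment over the 8012 tested genes.

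**Figure D5:**
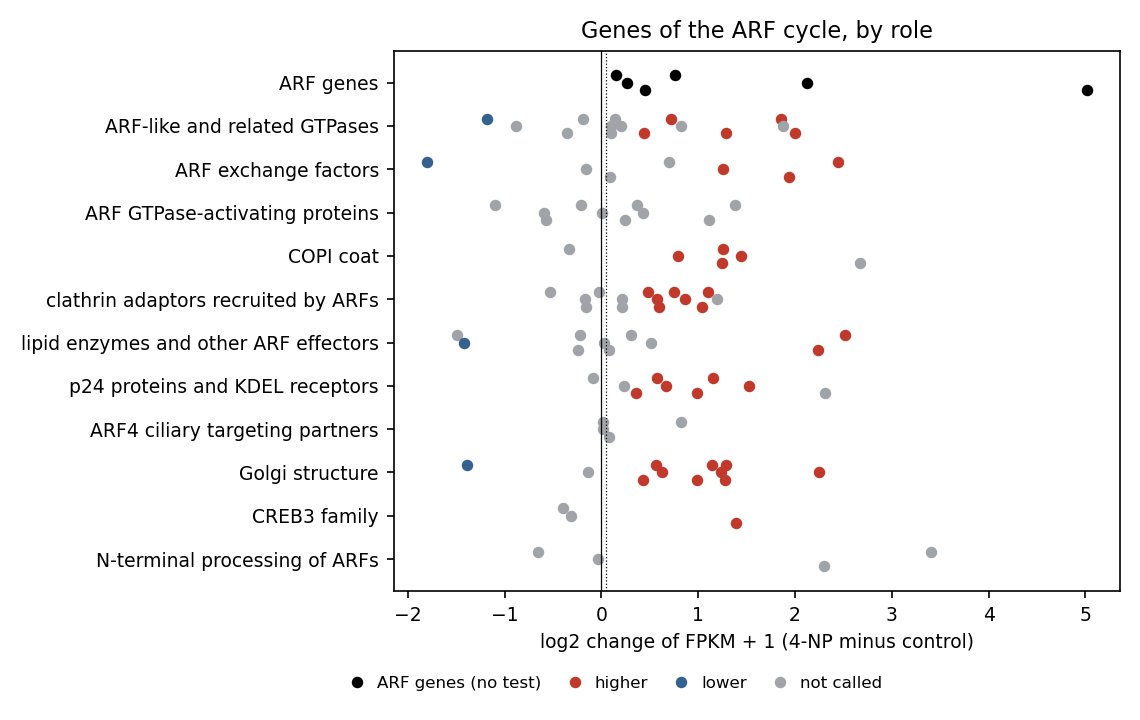
Log2 change of FPKM + 1 (4-NP minus control) of each tested gene of the ARF cycle, by role, with the ARF genes (no test) in the top row, and with genes called higher, called lower and not called by limma in different colours. The dotted line is the median of all tested genes (0.05). Called genes of the COPI coat, the adaptors, and the p24 proteins and KDEL receptors lie to the right, and no GTPase-activating protein was called.

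Among the exchange factors, which load ARFs with GTP, 3 of 7 tested genes rose and 1 fell, and 2 rose besides Arfgef3. The 3 that rose were 42.9% and the 1 that fell 14.3%, beside 24.7% and 23.1% of all tested genes. Gbf1, the exchange factor of the cis-Golgi that acts on class I and class II ARFs, had 16.5 and 15.1 FPKM in 4-NP cells, against 2.06 and 2.12 FPKM in control cells. Both groups were tight and lay well apart, a ratio of 7.55 and a log2 change of 2.44 ± 0.12 (limma adjusted p = 0.00137). Arfgef2, which encodes the trans-Golgi exchange factor BIG2, averaged 11.02 ± 0.0997 FPKM in 4-NP cells and 4.04 ± 0.299 FPKM in control cells (log2 change 1.25, adjusted p = 0.00389). Arfgef3 averaged 2.99 FPKM in 4-NP cells and 0.0370 FPKM in control cells, so that it had to differ once it had passed the filter. Cyth3, a cytohesin that acts on Arf6 and Arf1 at the plasma membrane, fell, with 3.18 and 2.61 FPKM in 4-NP cells, against 12.4 and 12.8 FPKM in control cells (log2 change -1.81 ± 0.13, adjusted p = 0.00266).

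Beside 24.7% of all tested genes called higher and 23.1% called lower, none of the 10 tested GTPase-activating proteins passed the test with limma. Their median log2 change was 0.13. At an unadjusted p under 0.05, 1 of them passed. Without 4-NP replicate 2, 1 of them was called higher and 1 lower, without control replicate 1, 1 was called lower, and without control replicate 2, 1 was called higher. Arfgap2, which acts with the COPI coat, averaged 39.4 ± 1.93 FPKM in 4-NP cells and 33.0 ± 1.60 FPKM in control cells (adjusted p = 0.0715). Git2, which acts on ARFs at focal adhesions, averaged 5.20 ± 1.37 FPKM in 4-NP cells and 5.22 ± 1.80 FPKM in control cells.

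The COPI coat is the complex that ARFs recruit for transport within the Golgi and back to the endoplasmic reticulum. Of its 6 tested genes, 4 rose (66.7%, beside 24.7% of all tested genes) and 0 fell (beside 23.1%). Their median log2 change was 1.26. Arcn1, the delta subunit, averaged 257 ± 12.2 FPKM in 4-NP cells and 93.7 ± 4.19 FPKM in control cells (log2 change 1.45 ± 0.07, adjusted p = 0.00129). Copa, the alpha subunit, averaged 216 ± 4.06 FPKM in 4-NP cells and 90.3 ± 3.17 FPKM in control cells, and Copb1, a beta subunit, 160 ± 12.4 FPKM in 4-NP cells and 66.0 ± 4.03 FPKM in control cells. Copz1, the zeta subunit, averaged 54.5 ± 4.75 FPKM in 4-NP cells and 31.2 ± 3.13 FPKM in control cells, and did not pass without 4-NP replicate 2 (adjusted p = 0.0576). Cope, named after its values were seen, was at 269 and 219 FPKM in 4-NP cells, against 15.6 and 87.4 FPKM in control cells, and was not called. The controls differed by several times for Cope.

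The p24 proteins and KDEL receptors travel in COPI vesicles. Of their 9 tested genes, 6 rose (66.7%, beside 24.7% of all tested genes) and 0 fell (beside 23.1%). The median log2 change was 0.66. Kdelr2, a receptor that returns resident proteins to the endoplasmic reticulum, was at 209 and 200 FPKM in 4-NP cells, against 69.1 and 71.9 FPKM in control cells (log2 change 1.52 ± 0.06, adjusted p = 0.000995). Tmed2, a p24 protein that primes COPI vesicles, averaged 431 ± 10.6 FPKM in 4-NP cells and 193 ± 20.8 FPKM in control cells. Tmed3 and Tmed9, of the same family, had log2 changes of 0.98 and 0.66. Tmed7 and Tmed10 were called with all libraries, and each lost its call when any of 3 libraries was left out (adjusted p 0.0572 to 0.0847 for Tmed7 and 0.0519 to 0.0942 for Tmed10). Tmed7 needed 4-NP replicate 2 and both controls, and Tmed10 both 4-NP libraries and control replicate 1.

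Of the coat adaptors that ARFs recruit, 7 of 14 tested genes rose and 0 fell, and fewer rose whichever library was left out, the fewest without either 4-NP library. With all libraries 50% rose and 0% fell, beside 24.7% and 23.1% of all tested genes. Gga3, a trans-Golgi adaptor, averaged 5.15 ± 0.0553 FPKM in 4-NP cells and 1.86 ± 0.141 FPKM in control cells (log2 change 1.11, adjusted p = 0.00737). Ap3d1, the delta subunit of the AP-3 adaptor, averaged 34.7 ± 0.691 FPKM in 4-NP cells and 16.4 ± 0.518 FPKM in control cells (log2 change 1.04, adjusted p = 0.00239). Smaller log2 changes were seen for Ap1s2 (0.86), Ap1b1 (0.75), Ap3b1 (0.60) and Ap3s2 (0.49). None of these 4 held in every fit without 1 library. The calls of Ap3b1 and Ap3s2 were lost without either 4-NP library (adjusted p 0.0501 to 0.0639), that of Ap1b1 whichever library was left out (0.0522 to 0.148) and that of Ap1s2 without either 4-NP library or control replicate 1 (0.0995 to 0.147). With no filter on low values Ap1b1 (0.0562) and Ap1s2 (0.0626) were not called either.

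Among the lipid enzymes and other effectors, 2 of 10 tested genes rose (20%, beside 24.7% of all tested genes) and 1 fell (10%, beside 23.1%). Arfip2, an arfaptin that binds Arl1 and ARFs at the trans-Golgi, was at 34.9 and 26.1 FPKM in 4-NP cells, against 3.38 and 5.76 FPKM in control cells (log2 change 2.52 ± 0.29, adjusted p = 0.006). Osbp, a sterol and PI4P exchanger that docks on the Golgi through ARFs, was at 97.4 and 160 FPKM in 4-NP cells, against 26.3 and 25.0 FPKM in control cells (log2 change 2.24, adjusted p = 0.00662), with a wide gap between the 4-NP libraries. Pip5k1c, which makes PIP2 at the plasma membrane downstream of Arf6, fell to 1.16 ± 0.255 FPKM in 4-NP cells, against 4.75 ± 0.555 FPKM in control cells (log2 change -1.42, adjusted p = 0.00767).

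Of the ARF-like and related GTPases, 5 of 15 tested genes rose (33.3%, beside 24.7% of all tested genes) and 1 fell (6.67%, beside 23.1%). The median log2 change of these GTPases was 0.20. Arl1, the trans-Golgi relative that recruits golgins, averaged 269 ± 8.95 FPKM in 4-NP cells and 109 ± 5.15 FPKM in control cells (log2 change 1.29 ± 0.06, adjusted p = 0.00137). Sar1b, the GTPase of the COPII coat, averaged 112 ± 8.77 FPKM in 4-NP cells and 30.3 ± 2.28 FPKM in control cells (log2 change 1.86, adjusted p = 0.0015), and its paralog Sar1a 295 ± 21.7 FPKM in 4-NP cells and 179 ± 1.65 FPKM in control cells. Arl5b, another trans-Golgi member, averaged 13.7 ± 1.61 FPKM in 4-NP cells and 2.66 ± 0.315 FPKM in control cells. Arl2, named after its values were seen, was also among the 5 that rose (log2 change 0.44, adjusted p = 0.0305). Its call was lost whichever library was left out, with equal totals and with the replicate number as a block. Arl4d, which recruits cytohesins to the plasma membrane, fell to 3.08 ± 0.190 FPKM in 4-NP cells, against 8.26 ± 0.798 FPKM in control cells (log2 change -1.18, adjusted p = 0.00635).

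Golgi structure genes rose in 9 of 11 tested cases and 1 fell, and 4 to 7 rose with any 1 library left out, the lowest without 4-NP replicate 2. With all libraries 81.8% rose and 9.09% fell, beside 24.7% and 23.1% of all tested genes. Golgb1 (giantin) averaged 15.7 ± 0.265 FPKM in 4-NP cells and 5.86 ± 0.102 FPKM in control cells. Acbd3 averaged 17.7 ± 3.05 FPKM in 4-NP cells and 6.65 ± 0.195 FPKM in control cells, and Blzf1 18.3 ± 0.715 FPKM in 4-NP cells and 7.22 ± 0.854 FPKM in control cells. The log2 changes of Golgb1, Acbd3 and Blzf1 were 1.28, 1.28 and 1.24. Uso1, the vesicle tether p115, fell to 4.59 and 4.69 FPKM in 4-NP cells, against 10.5 and 18.1 FPKM in control cells. The calls of Uso1, Stx5 and Golga2 were lost without either 4-NP library (adjusted p 0.107 to 0.17), and that of Golga5 whichever library was left out (0.0557 to 0.13). With equal totals Golga2 (0.0523) and Golga5 (0.0731) were not called, nor was Golga2 with a pseudocount of 0.1 FPKM (0.0619) or no filter (0.0654).

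Creb3, the transcription factor upstream of ARF4 in human cells, was at 177 and 173 FPKM in 4-NP cells, against 67.9 and 64.0 FPKM in control cells. The groups lay apart, at a ratio of 2.65 and a log2 change of 1.40 ± 0.06 (adjusted p = 0.00116), and it was the 1 called gene of the 3 tested in its family. Creb3l2 averaged 2.58 ± 0.513 FPKM in 4-NP cells and 3.44 ± 0.458 FPKM in control cells (log2 change -0.32, adjusted p = 0.245). Creb3l1, named after its values were seen, averaged 2.11 ± 0.557 FPKM in 4-NP cells and 3.09 ± 0.541 FPKM in control cells (log2 change -0.40, adjusted p = 0.211). Both were lower in 4-NP cells without overlap of the groups and were not called. The median log2 change of the 3 was -0.32, and 24.7% of all tested genes were called higher.

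In the lists of partners and processing enzymes limma called 0 genes, beside 24.7% of all tested genes called higher and 23.1% called lower. Of the 4 tested ciliary targeting partners of Arf4, 0 had an unadjusted p under 0.05. Rab11a averaged 42.3 ± 4.25 FPKM in 4-NP cells and 41.6 ± 1.82 FPKM in control cells, and Rab8a, which acts with it in transport to the cilium, 37.8 ± 0.426 FPKM in 4-NP cells and 37.3 ± 1.84 FPKM in control cells. Rab3ip, named after its values were seen, was at 0.785 and 3.50 FPKM in 4-NP cells, against 0.529 and 0.682 FPKM in control cells. Its fit without 4-NP replicate 1 rests on the higher 4-NP library alone, so nothing is read from it. Of the 4 enzymes that process the ARF N-terminus, 0 had an unadjusted p under 0.05. Nmt1, which myristoylates ARFs, was at 65.0 and 63.3 FPKM in 4-NP cells, against 18.4 and 0.954 FPKM in control cells (adjusted p = 0.0921) and was not called. Its log2 change was 5.06 without control replicate 1 and 1.75 without control replicate 2, and since each of these fits drops the difference between the controls, nothing is read from its calls there. Metap1, which removes the first methionine, averaged 21.7 ± 0.923 FPKM in 4-NP cells and 22.2 ± 0.671 FPKM in control cells. Metap2, another enzyme of this step, was named after its values were seen. It was at 23.1 FPKM in 4-NP replicate 1 and listed at 0 in every other library. Nothing is read from its fit without 4-NP replicate 2, which drops the 4-NP library at 0.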

How the data were processed

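RNA depleted of ribosomal RNA was sequenced from rat Sertoli cells in 2 4-NP and 2 control libraries. The sample titles gave groups and replicate numbers, and table columns named NP were matched to the treated samples. HISAT2 and DESeq2 are named in the submitters' processing notes, FastQC and edgeR in the study's methods, with no versions or genome build in either. The authors deposited FPKM per transcript, with the fold, p-value and q-value of their own comparison, which were not used. The circRNA table deposited by the authors holds a read count and a scaled signal per library, and their quotient gave the mapped reads. That table gives no coordinates, so no circRNA was placed at an ARF gene, and the lncRNA table, deposited as FPKM, holds only selected entries.

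Of 17290 mRNA rows, 1544 exact repeats were dropped, as was a second entry of 1 transcript, and FPKM of 15745 transcripts was summed per gene name (13114). FPKM multiplied by length and mapped reads fell within 0.05 of a whole number for 6.73 to 10.5% of values, so reads per gene were not recovered and no test on counts was made. For genes averaging 1 FPKM or more, log2(FPKM + 1) was compared by limma 3.58.1 (trend, two-sided; R 4.3.3), with Benjamini-Hochberg adjusted p under 0.05 over 8012 genes. An exact permutation test of 2 against 2 libraries could not pass 0.05. A check of the fit on simulated data used only large changes and a smoothed spread. It says nothing about small changes or about genes whose replicates differ widely. The ARF genes and the lists were chosen with earlier results of these data known. Genes named from a list were at most 5 called genes with the largest change and the 2 most abundant, and a selection is printed. Genes like Arf4 were the 6 nearest with a mean of at least 5 FPKM. Promoters came from RefSeq (GRCr8). No protein sequences were used here. Alternatives were the pseudocount, the filter, the scaling, a threshold on the change, single transcripts, a block for the replicate number and fits without each library. Python 3.11.15, pandas 2.3.3, numpy 2.4.6 and matplotlib 3.10.9 were used for the other steps.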

Additional observations from a re-analysis of the deposited data

How the results depend on the processing

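No called gene named in the text changed direction under any alternative run. Among the uncalled genes named by rule from the lists, the log2 changes of Git2, Rab11a, Rab8a and Metap1, all near 0, changed sign under some alternatives. Equal totals gave -0.06 for Git2, -0.06 for Rab11a and -0.06 for Rab8a, and equal medians 0.003 for Metap1. Signs were not followed for uncalled genes named after their values were seen, such as Spag9. With equal totals the calls also tipped to 1808 higher and 2009 lower, against 1981 and 1850. Without 1 library the genes called across the table numbered 2422 to 2745, against 3831 with all, and the list genes called higher 25 to 35 (37 with all) and lower 3 to 6 (4 with all). With a log2 change beyond 1 required as well, 21 list genes were higher, and with no filter on low values 9 were lower. The Arf1 log2 change of 2.13 was 2.51 with a pseudocount of 0.1 FPKM and 1.33 with one of 5 FPKM, since Arf1 was low in control cells. With a pseudocount of 5 FPKM, Arf2 was at 0.21 and Arf3 at 0.40, and with equal totals Arf2 was at 0.19, Arf3 at 0.37 and Arf6 at 0.68. Over all alternatives the log2 change of Arf4 stayed between 4.89 and 5.14, that of Arf5 between 0.02 and 0.27. Libraries with the same replicate number showed no shared deviation, since the deviations of number 1 in both groups correlated at -0.00766 over 8012 genes (a description). This cannot show whether they were prepared together. With the replicate number as a block in limma, 3216 genes were called, and Ap1s2 (adjusted p = 0.0534), Stx5 (0.0631) and Arl2 were not. Fbxo8, of the exchange factor list, was called there (adjusted p = 0.0385), with equal medians and with a mean of at least 5 FPKM. In the main limma fit Fbxo8 was not called (adjusted p = 0.0609). It averaged 14.0 ± 1.73 FPKM in 4-NP cells and 8.35 ± 2.04 FPKM in control cells. Reads per gene are unknown, so no counting error could be given for levels under about 1 FPKM.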

Other observations

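The elements searched in the ARF promoters can be set beside the calls of other genes, without a test, since they were looked at with the changes known. Of 6187 tested genes with a RefSeq promoter entry, 25.3% were called higher and 22.6% lower in 4-NP cells, with a median log2 change of 0.07. Among the 70 of them with the unfolded protein response element, 30 were higher and 5 lower (median 0.46), and among the 245 with the Golgi stress element, 100 were higher and 32 lower (median 0.42). The ER stress element was matched in 11 tested genes, of which 8 were higher and 3 lower, and the ER stress element II in 7, of which 6 were higher and 0 lower. The cAMP response element was matched in 223 genes, with 67 higher and 35 lower, and the C/EBP-ATF element in 111, with 39 higher and 23 lower. The ARF genes are among these counts, and 1 gene can hold several elements.

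Some estimates differed widely between libraries of 1 group. These genes were chosen after their values were seen. Spag9, a scaffold that binds Arf6, was at 2.22 and 29.0 FPKM in 4-NP cells, against 17.2 and 2.46 FPKM in control cells. Metap2, which removes the first methionine of proteins, was at 23.1 FPKM in 4-NP replicate 1 and was listed at 0 in the other 3 libraries. Kdelr3, a KDEL receptor, was at 111 and 109 FPKM in 4-NP cells, against 8.55 and 51.4 FPKM in control cells. The cause was not tested.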
